A study of Macaca fascicularis with 6 samples.

Results

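The Fc gamma receptors are the cell surface proteins through which leukocytes and liver endothelium bind the constant part of IgG antibodies. The family described here has 9 gene symbols: the receptors FCGR1A, FCGR1BP, FCGR2A, FCGR2B, FCGR2C, FCGR3A and FCGR3B, the signalling chain FCER1G, and FCGRT, the intracellular IgG receptor. Its members were taken by annotation, as every probe set named for at least 1 of these symbols, which gave 15 of the 54675 probe sets on the array and covered all 9. Of these, 12 carried 1 symbol and 3 carried several. The family was selected on ligand and vehicle signals of these same arrays that were already known, so its differences between the groups are given as a description, and no test of a member is used as support.

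Liver was sampled from 6 cynomolgus macaques (Macaca fascicularis), 1 animal on each Affymetrix array. An agent labelled as an LXR treatment, a ligand of the liver X receptor per the series title, had been given to 3 animals, and vehicle to the other 3. LXR, which oxysterols bind and switch on, is a nuclear receptor of hepatocytes and macrophages alike. The array titles write the treated group as Liv_GW without spelling out the letters, and the dose, duration, route, age and sex were not given in the sources used here.

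Receptors of this family oppose each other. Activating receptors carry, or borrow from FCER1G, an immunoreceptor tyrosine-based activation motif (ITAM), a stretch of cytoplasmic tail that SRC family kinases phosphorylate and on which the kinase SYK docks, and this drives phagocytosis and the oxidative burst. FCGR2B carries an inhibitory motif in place of the ITAM and recruits phosphatases that oppose the same signal. In liver, Kupffer cells, the resident macrophages, bear activating receptors, while sinusoidal endothelium is known for FCGR2B, which takes up small immune complexes. FCGRT stands apart in function: it pairs with B2M inside cells and returns IgG and albumin to the blood.

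The probe sets were designed on human sequence, which bears on what each one can read here. Only 6 of the 9 symbols, FCGR1A, FCGR2A, FCGR2B, FCGR3A, FCER1G and FCGRT, occur as symbols in the macaque annotation used for names (assembly T2T-MFA8v1.1), where FCGR2B, FCGR3A and FCGR2A lie close to each other on the chromosome that also holds FCER1G and FCGR1A. A signal on a probe set named FCGR1BP, FCGR2C or FCGR3B was therefore not assigned to a macaque gene. By the maker's naming, a probe set ending in x_at holds probes that can match other genes, and one ending in s_at holds probes common to several transcripts. These human paralogues are near-identical in part, so a single macaque transcript may feed several of the 15 probe sets.

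Signals are MAS5 intensities in arbitrary units on a linear scale, and differences are ligand minus vehicle on log2(signal + 16), with the standard error (SE) of limma's fit over all probe sets. On 10 of the 11 family probe sets bright enough to be tested, the mean was higher in ligand livers. These 11 had a mean signal over the 6 arrays of at least 129, the median of all probe sets. The median difference was 0.80 over the 11 and 0.60 over all 15, against 0.0032 over the 27304 probe sets tested, of which 50.3% were higher with the ligand. No family probe set passed limma's test at an adjusted p of 0.05 (0 of 11), nor did any on the array (0%). At an unadjusted p under 0.05, 6 of the 11 were higher and 0 lower, against 3.24% of all tested probe sets higher and 2.33% lower. Among the 6 were the FCER1G pair and the bright FCGR2C pair, so they are not separate genes, and a single macaque transcript may feed several. The 6 became 3 without ligand array 2 or without vehicle array 2. All 3 ligand arrays lay above all 3 vehicle arrays on 5 of the 11, against 5.99% of all tested probe sets, and below them on 0 of the 11, against 4.96%. These counts include FCGR1BP 214511_x_at, which was bright enough only through the ligand arrays; without it, 5 of 10 had an unadjusted p under 0.05 and 4 of 10 lay wholly above. A piece of liver is a mixture, and more cells that bear a receptor cannot be told apart here from more receptor RNA in each cell.

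**Figure D1:**
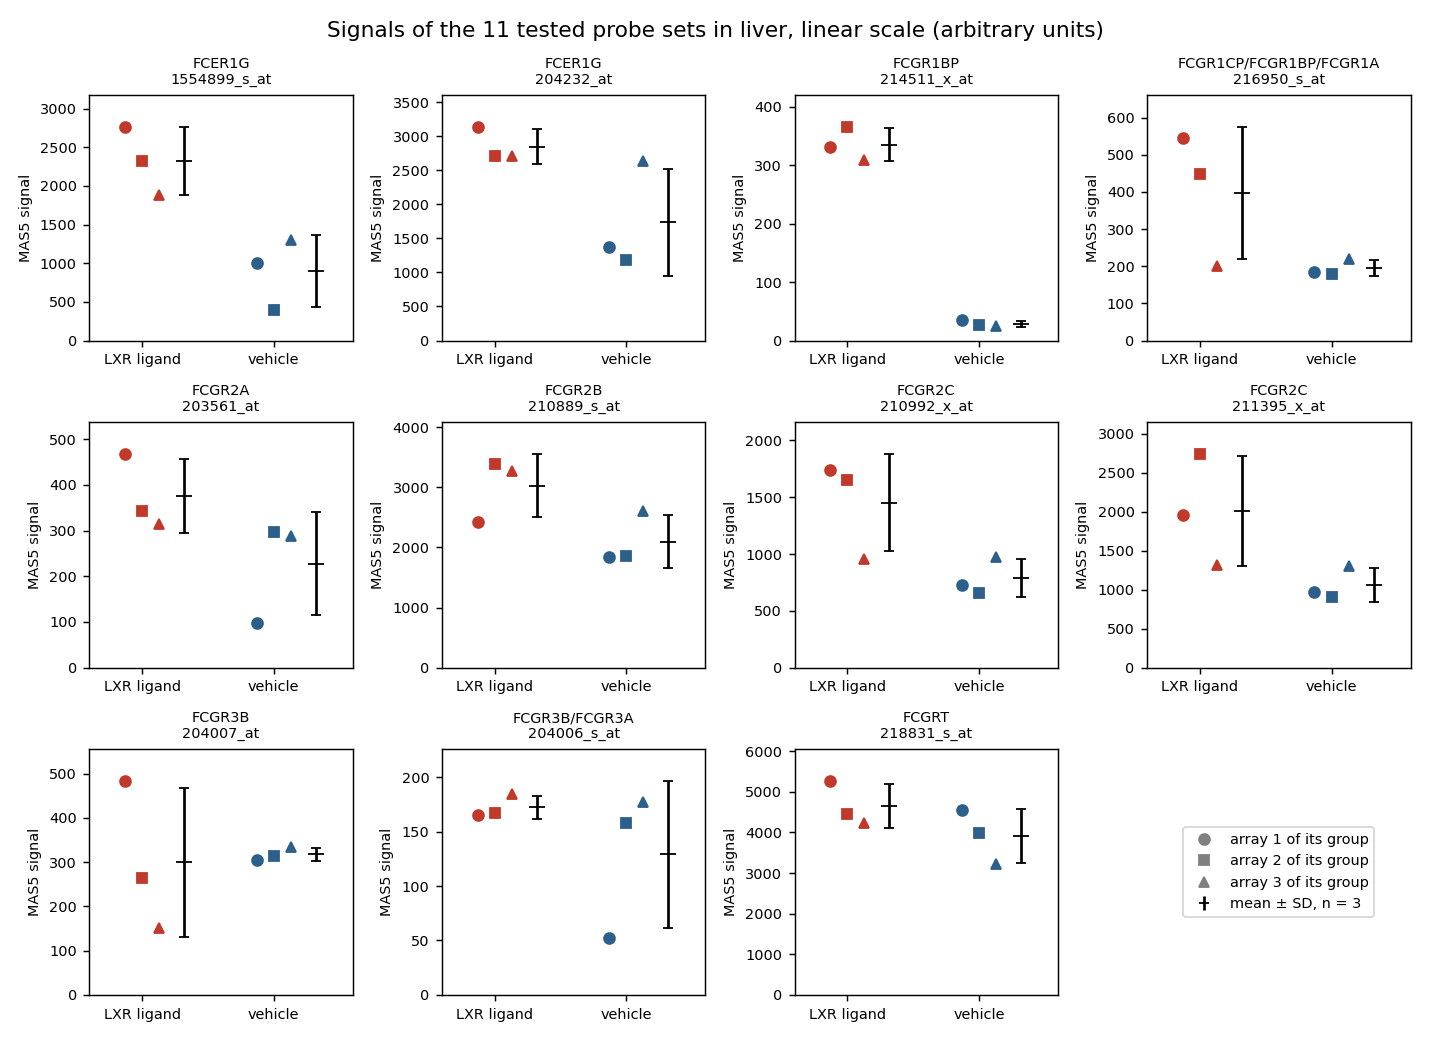
MAS5 signal (linear axis from 0, arbitrary units) of the 11 tested probe sets in LXR ligand livers (red) and vehicle livers (blue), 1 point per animal, with the mean and SD (n = 3) in black. FCGR1BP 214511_x_at runs from 309 to 366 in ligand livers and from 24.1 to 34.3 in vehicle livers, and vehicle array 3 is the highest of its group in 8 of the 11 panels.

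FCGR1A encodes the high-affinity IgG receptor of monocytes and macrophages, and FCGR1BP is a human pseudogene copy of it. Probe set 214511_x_at, named for FCGR1BP, had the largest difference of the family, with signals of 331, 366 and 309 on ligand arrays 1 to 3 and 34.3, 27.1 and 24.1 on vehicle arrays 1 to 3. All 3 ligand arrays lay above all 3 vehicle arrays. The mean was 335 ± 28.7 in ligand livers and 28.5 ± 5.25 in vehicle livers (SD, n = 3 each), and the log2 difference was 2.98 ± 0.56 (SE). Vehicle signals of this size were at the level of the family probe sets too dim to be tested, whose means reached 38.4, so no exact fold is given. This probe set reached the brightness needed for testing through the ligand arrays alone, its vehicle mean being far under 129 (that of the shared FCGR3 probe set was just under it, at 129.1). The size of its log2 difference depended on the constant added before the log: 3.52 with 1 and 2.11 with 64.

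The groups overlapped on the other 2 probe sets named for FCGR1 genes. Probe set 216950_s_at, shared by FCGR1A, FCGR1BP and FCGR1CP, read 545, 447 and 199.5 on ligand arrays 1 to 3 and 186, 179 and 219 on vehicle arrays 1 to 3. Ligand arrays 1 and 2 were above every vehicle array and ligand array 3 lay among them. The log2 difference was 0.87 ± 0.40 (SE), and it moved to 1.28 with ligand array 3 left out and to 0.59 with ligand array 1 left out. The probe set named for FCGR1A alone, 216951_at, was too dim to be tested, at 106, 10.4 and 20.6 on the ligand arrays and 50.4, 12.2 and 10.2 on the vehicle arrays. Its 2 groups overlapped, and its difference of 0.42 became -0.24 without ligand array 1.

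FCGR2A, an activating low-affinity receptor that carries its own ITAM, gave 467, 342 and 315 on the ligand arrays and 97.4, 296 and 288 on the vehicle arrays with probe set 203561_at. The groups did not overlap, but the lowest ligand array was only 1.06 times the highest vehicle array. The log2 difference of 0.80 ± 0.43 (SE) owed much to vehicle array 1, without which it was 0.32. Its other probe set, 1565673_at, was dim and disordered, at 6.73, 1.95 and 74.2 on the ligand arrays and 6.77, 71.7 and 20.1 on the vehicle arrays. Probe set 1565674_at, shared with FCGR2C, was equally dim, at 31.3, 69.9 and 23.1 on the ligand arrays and 3.74, 77.4 and 8.72 on the vehicle arrays. Neither of these dim probe sets was tested, and in both the groups overlapped.

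FCGR2C, a human gene whose outer part resembles FCGR2B and whose tail resembles FCGR2A, was named by 3 probe sets, of which the 2 bright ones varied together. On 211395_x_at the signals were 1965, 2741 and 1323 in ligand livers and 974, 901 and 1307 in vehicle livers, groups that stayed apart by a factor of 1.013. On 210992_x_at they were 1740, 1655 and 959 in ligand livers and 729, 661 and 978 in vehicle livers, so that ligand array 3 fell under vehicle array 3. In both, ligand arrays 1 and 2 were the highest of the 6 and vehicle array 2 was the lowest. The log2 differences were 0.87 ± 0.29 and 0.84 ± 0.29 (SE), and without ligand array 3 they were 1.14 and 1.11. The third, 211396_at, was near-constant and dim, at 37.1 to 46.4 in ligand livers and 33.8 to 41.2 in vehicle livers.

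FCGR2B, the inhibitory receptor, was read by 1 probe set, 210889_s_at, which gave 2426, 3386 and 3269.5 on the ligand arrays and 1833, 1861 and 2597 on the vehicle arrays. Ligand arrays 2 and 3 were above every vehicle array, and ligand array 1 lay just under vehicle array 3. The mean was 3027 ± 524 in ligand livers and 2097 ± 433 in vehicle livers (SD, n = 3 each), with a log2 difference of 0.53 ± 0.23 (SE) that stayed between 0.44 and 0.69 whichever array was left out.

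FCGR3A, the activating receptor of NK cells and macrophages, and FCGR3B, in humans a lipid-anchored receptor of neutrophils, gave uneven values. The shared probe set 204006_s_at read 165, 168 and 185 on the ligand arrays and 52.2, 158 and 177 on the vehicle arrays. Vehicle array 1 alone lay well under the rest: the log2 difference of 0.51 ± 0.54 (SE) was 0.040 without it. Probe set 204007_at, named for FCGR3B, read 483, 264 and 152 on the ligand arrays, a wide spread, and 305, 313 and 334 on the vehicle arrays. It was the only tested family probe set with a lower mean in ligand livers, at a log2 difference of -0.22 ± 0.40 (SE), and without ligand array 3 the sign turned, to 0.17.

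FCER1G, the gamma chain that brings FCGR1A and FCGR3A to the cell surface and carries the ITAM for them, was read by 2 bright probe sets, and in both the ligand group lay above the vehicle group. On 204232_at the signals were 3139, 2704 and 2708 in ligand livers and 1379, 1190 and 2642 in vehicle livers. The ligand arrays were close to each other and vehicle array 3 came within a factor of 1.02 of the lowest of them. On 1554899_s_at they were 2763, 2318 and 1879 in ligand livers and 1002, 397 and 1299 in vehicle livers, with the lowest ligand array 1.45 times the highest vehicle array. The log2 differences were 0.80 ± 0.29 and 1.49 ± 0.39 (SE). Leaving out single arrays moved the first between 0.57 and 1.14 and the second between 0.997 and 1.83, in each case lowest without vehicle array 2 and highest without vehicle array 3.

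FCGRT, which rescues IgG and albumin from breakdown, differed little between the groups. Probe set 218831_s_at read 5263, 4461 and 4224 on the ligand arrays and 4551, 3984 and 3212 on the vehicle arrays. The groups overlapped, and the log2 difference of 0.25 ± 0.20 (SE) was near its error and fell to 0.12 without vehicle array 3. Its partner B2M had 67418, 67723 and 42261 in ligand livers and 53666, 46526 and 52962 in vehicle livers, also overlapping, at a difference of 0.18 ± 0.20 (SE), while its other tested probe set had -0.61. Albumin, the other cargo of FCGRT and a marker of hepatocytes, had a difference of 0.077 ± 0.15 (SE) at very bright signals of 129327 to 156353 in ligand livers and 121612 to 153778 in vehicle livers, while its other tested probe sets had -0.58, 0.55 and 0.06.

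**Figure D2:**
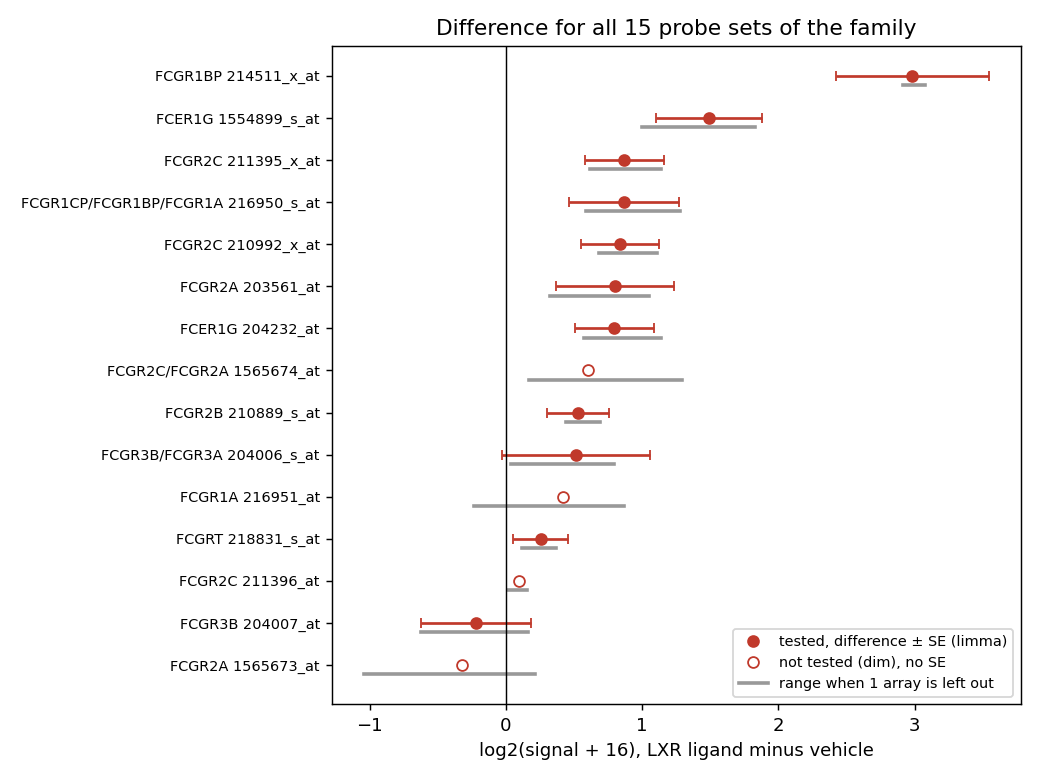
Difference in log2(signal + 16), LXR ligand minus vehicle, for all 15 probe sets, ordered by size. Filled points are tested probe sets with limma's SE, open points are too dim to be tested, and grey bars give the range when 1 array is left out. Only FCGR1BP 214511_x_at, at 2.98, and FCER1G 1554899_s_at, at 1.49, lie above 1.

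The spread between animals differed by member. The SD of log2(signal + 16) was larger among vehicle livers on 7 of the 11 tested probe sets and larger among ligand livers on 4. It was 0.12 in ligand livers and 0.61 in vehicle livers for FCER1G 204232_at, 0.29 in ligand livers and 0.83 in vehicle livers for FCGR2A 203561_at, and 0.080 in ligand livers against 0.83 in vehicle livers for the shared FCGR3 probe set. The opposite held for FCGR3B 204007_at, at 0.79 in ligand livers and 0.064 in vehicle livers, and for the shared FCGR1 probe set, at 0.73 in ligand livers and 0.14 in vehicle livers. Within the ligand group, array 3 was the lowest on 8 of the 11, and within the vehicle group array 3 was the highest on 8 of the 11. With vehicle array 3 left out, the groups separated upward on 9 of the 11, where 11.96% of all tested probe sets did so.

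Ratios that follow RNA quality also set array 3 apart. The ratio of the 3 prime to the 5 prime control probe set of ACTB, which grows as RNA shortens, was 6.16, 6.26 and 16.04 on ligand arrays 1 to 3 and 4.45, 5.64 and 8.34 on vehicle arrays 1 to 3, and that of GAPDH was 2.61, 2.25 and 4.15 on the ligand arrays and 1.99, 2.50 and 3.25 on the vehicle arrays. Array 3 was the highest of its group on both ratios. The family was mostly lowest on array 3 in ligand livers and highest on array 3 in vehicle livers. The ratio of the 3 prime to the middle probe set of ACTB was also highest on array 3, at 4.39 in ligand livers and 3.20 in vehicle livers. On the ratio of the 3 prime to the middle probe set of GAPDH, array 3 was again the highest ligand array, at 0.932, but vehicle array 2, at 0.885, was above vehicle array 3, at 0.865. The part of RNA quality in the family's values was not tested. The median signal was 129 to 139 on ligand arrays and 111, 138 and 139 on vehicle arrays 1 to 3. Vehicle array 1, the lowest of the 6, is the array without which the FCGR2A and shared FCGR3 differences shrank, and the part of its lower median was not tested.

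Macrophage markers were higher on the same arrays. Of 20 listed markers of Kupffer cells and other macrophages 15 were measured, and all 15 had a higher mean in ligand livers, 5 of the 15 without overlap and none passing limma's adjusted test, with a median difference of 0.71. Over the 13349 genes measured, each by its brightest tested probe set with 1 symbol, 6.21% lay wholly above, 5.21% wholly below and the median difference was 0.0027. The summed signal of the 15 was 36441 to 40849 in ligand livers and 20089.7 to 30641 in vehicle livers, and none of their signals was at 0. C1QA, C1QB and MARCO had the largest separated differences, at 1.62 ± 0.34, 1.24 ± 0.35 and 1.23 ± 0.22 (SE). CD163, a haemoglobin scavenger receptor, read 2228, 2283 and 1822 in ligand livers and 1441, 982 and 1470 in vehicle livers, at 0.71 ± 0.23 (SE), VSIG4, a complement receptor of Kupffer cells, had 0.57 ± 0.29, and CD5L, a secreted macrophage protein, 0.25 ± 0.31. CD68 was not among the genes measured. The part of macrophage content in the family's differences was not tested.

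The family was also set against these markers array by array. Each probe set was centred on its own mean in log2(signal + 16), and the median of the 15 centred macrophage markers on the same array was subtracted. That median differed by 0.65 between the groups. Subtraction lowered the difference of every probe set by that amount, whichever cells it came from. A starting difference near 0.65 therefore ended near 0, and the share of all tested probe sets that did so was not counted. After subtraction, 7 of the 11 probe sets had a difference within 0.25 of 0, among them FCER1G 204232_at at 0.14, FCGR2A at 0.15, FCGR2B at -0.12 and the FCGR2C pair at 0.22 and 0.18. FCGR1BP 214511_x_at still had 2.33 and FCER1G 1554899_s_at 0.84, the 2 probe sets on which all ligand arrays remained above all vehicle arrays. These 2 also had the largest differences of the family before subtraction, and the same count over all tested probe sets was not made. FCGRT was at -0.40 and FCGR3B at -0.87, with overlapping groups. These values describe 6 arrays and carry no test, and the markers stand for cells only as far as their own RNA per cell was equal.

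**Figure D3:**
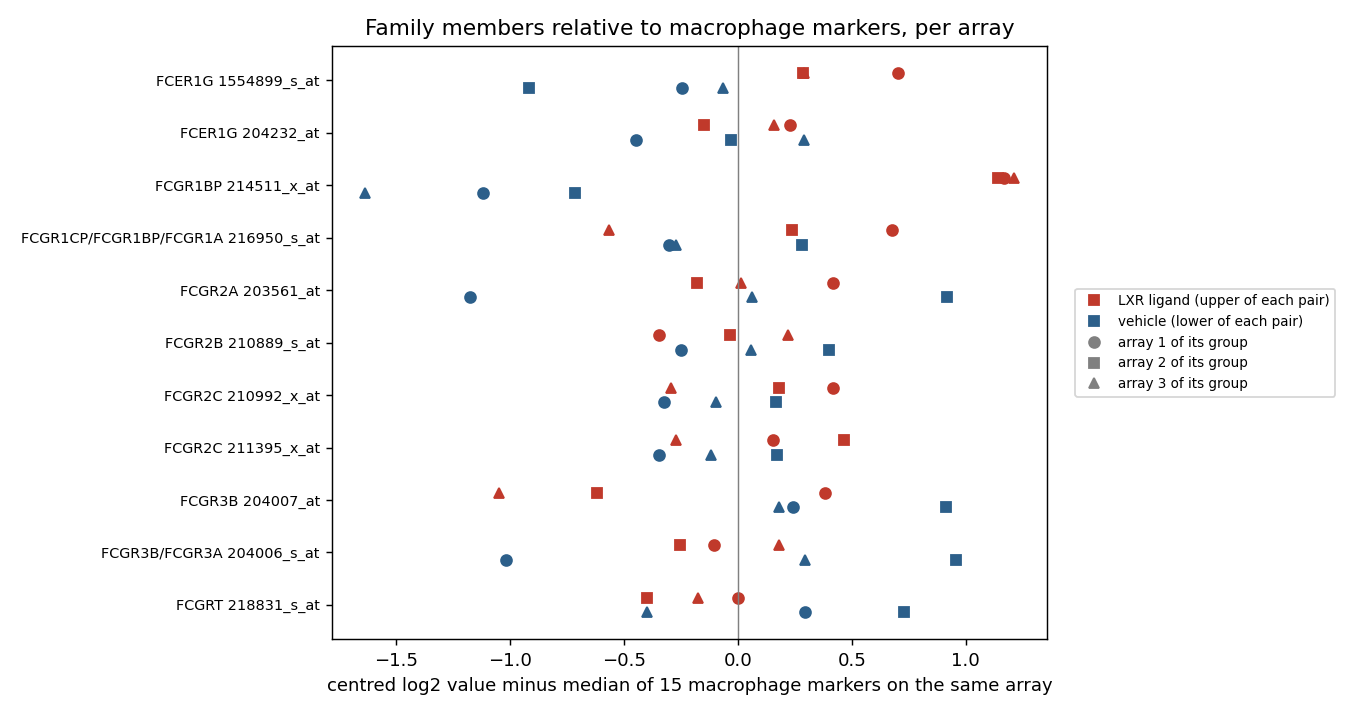
Centred log2(signal + 16) of each tested probe set minus the median of the 15 macrophage markers on the same array, 1 point per animal, LXR ligand in red above vehicle in blue. FCGR1BP 214511_x_at keeps its groups apart, with a difference of 2.33, while FCER1G 204232_at, FCGR2A and FCGR2B show mixed groups.

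The other cells that could bear these receptors gave less uniform values. Of 12 markers of sinusoidal endothelium, the main FCGR2B-bearing cell of liver, 10 were higher and 2 lower in ligand livers, with a median difference of 0.37. LYVE1, a hyaluronan receptor, and CDH5, the cadherin of endothelial junctions, were the 2 whose groups did not overlap, at 1.02 ± 0.34 and 0.58 ± 0.23 (SE), whereas STAB2, a scavenger receptor, had 0.18 ± 0.41. The summed signal of the list was 21707 to 28435 in ligand livers and 12701 to 25290 in vehicle livers, overlapping ranges. Its part in the FCGR2B values was not tested.

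Of 6 neutrophil markers measured, of 14 listed, 2 were higher and 4 lower in ligand livers, with a median of -0.41, and summed signals of 1547 to 3283 in ligand livers and 1908 to 3489 in vehicle livers. CSF3R, the receptor for the granulocyte growth factor, had -0.34 ± 0.39 (SE), while its other tested probe set had 0.34. CXCR2, a chemokine receptor, was too dim to be tested. NK cell markers had 3 higher and 2 lower of 5 measured, with a median of 0.12. KLRD1, a lectin receptor of NK cells, was the 1 gene without overlap, at 541, 442 and 398 in ligand livers and 306, 58.1 and 368 in vehicle livers, whereas the granule protein NKG7 was too dim to be tested. In T cells 3 of 5 measured markers were higher (median 0.076), in B cells 2 of 6 (median -0.087), in platelets 2 of 4 (median 0.16) and in mast cells and basophils 3 of 4 (median 0.29), where the transcription factor GATA2, at 0.52 ± 0.27 (SE), was the 1 gene without overlap. The other tested probe sets of GATA2 had 0.92 and -0.12. The B cell genes CD79A and MS4A1 had 0.30 ± 0.28 and 0.90 ± 0.68 (SE). Hepatocyte markers, which show the tissue to be liver at signals up to 156353, were evenly split, with 5 of 9 higher and a median of 0.028. In every one of these lists 0 genes passed limma's adjusted test.

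The IgG that the receptors bind is made by plasma cells, and on the brightest probe set most genes of this list had a lower mean in ligand livers. Of 8 measured genes of antibody chains and plasma cells, of 14 listed, 2 were higher and 6 lower, with a median difference of -0.24. The split depended on the probe set. IGKC, at -0.33, had 0.02 and 1.06 on its other tested probe sets, and DERL3, at -0.32, had 0.39. In the other direction IGHM, at 0.21, had 0.21 and -0.77, and SDC1, at 0.26, had -0.08. IGLL5 was close to no difference, at -0.014. MZB1, a chaperone of antibody assembly, was the 1 gene without overlap and lay below, at 41.3, 181 and 79.0 in ligand livers and 202, 249 and 239.5 in vehicle livers. Its ligand mean of 101 was under 129, so it was bright enough to be tested through the vehicle arrays alone. Of all measured genes, 5.21% lay wholly below. Among other antibody receptors and partners of FCGRT, 6 of 9 were higher and 3 lower, all with overlapping groups, with a median of 0.18.

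Receptors and adaptors that share or parallel the FCER1G chain gave mixed values. Of 9 measured, of 16 listed, 7 were higher and 2 lower, 0 without overlap, with a median of 0.27. TYROBP, the adaptor that serves many myeloid receptors as FCER1G serves the Fc receptors, read 1240.1, 1225 and 675 in ligand livers and 710.3, 712 and 1151 in vehicle livers, at 0.27 ± 0.31 (SE). Vehicle array 3 was high for TYROBP as it was for FCER1G, and ligand array 3 was the lowest of all 6.

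Downstream of the receptors the differences went both ways. Of 30 measured kinases, adaptors and effectors, of 35 listed, 21 were higher and 9 lower in ligand livers, with a median of 0.13 and a range from -1.43 to 0.88. The groups lay wholly apart on 8 of the 30, upward on 6 and downward on 2, against 6.21% of all measured genes upward and 5.21% downward, and 0 of the 30 passed limma's adjusted test. The largest of these 8 differences were those of MYO10, a motor of membrane protrusions, at 0.88 ± 0.37 (SE), GSN, the actin-severing gelsolin, at 0.81 ± 0.28, and CFL1, the actin-severing cofilin, at 0.74 ± 0.23, whose other tested probe set had 0.03. The 2 downward ones, named after their values were seen, were WAS, the activator of actin branching in blood cells, at -0.63 ± 0.23 (SE), and CRKL, an adaptor, at -0.16 ± 0.19. SYK, the kinase that docks on the ITAM, was dim and uneven, at 64.3, 150.3 and 311 in ligand livers and 305, 64.5 and 449 in vehicle livers, at -0.49 ± 0.72 (SE). These genes serve many pathways and cell types, so their values are not specific to Fc receptors.

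The phosphatases and other brakes on the receptors were near 0 as a list. Of 15 measured, of 20 listed, 9 were higher and 6 lower, 0 without overlap, with a median of 0.020. INPP5D, the lipid phosphatase that FCGR2B recruits, had 0.17 ± 0.31 (SE). PTPN6, a tyrosine phosphatase of blood cells, read 723, 889 and 1257 in ligand livers and 1050.2, 1604 and 1518 in vehicle livers, at -0.55 ± 0.28 (SE). Of 4 measured genes of the NADPH oxidase, the enzyme of the oxidative burst, 3 were higher and 1 lower, with a median of 0.25. CYBB, its catalytic subunit, was the 1 gene without overlap, at 882, 1011 and 959.5 in ligand livers and 586, 531 and 744 in vehicle livers, at 0.62 ± 0.24 (SE). Its other tested probe sets had differences of 0.04 and -0.82.

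**Figure D4:**
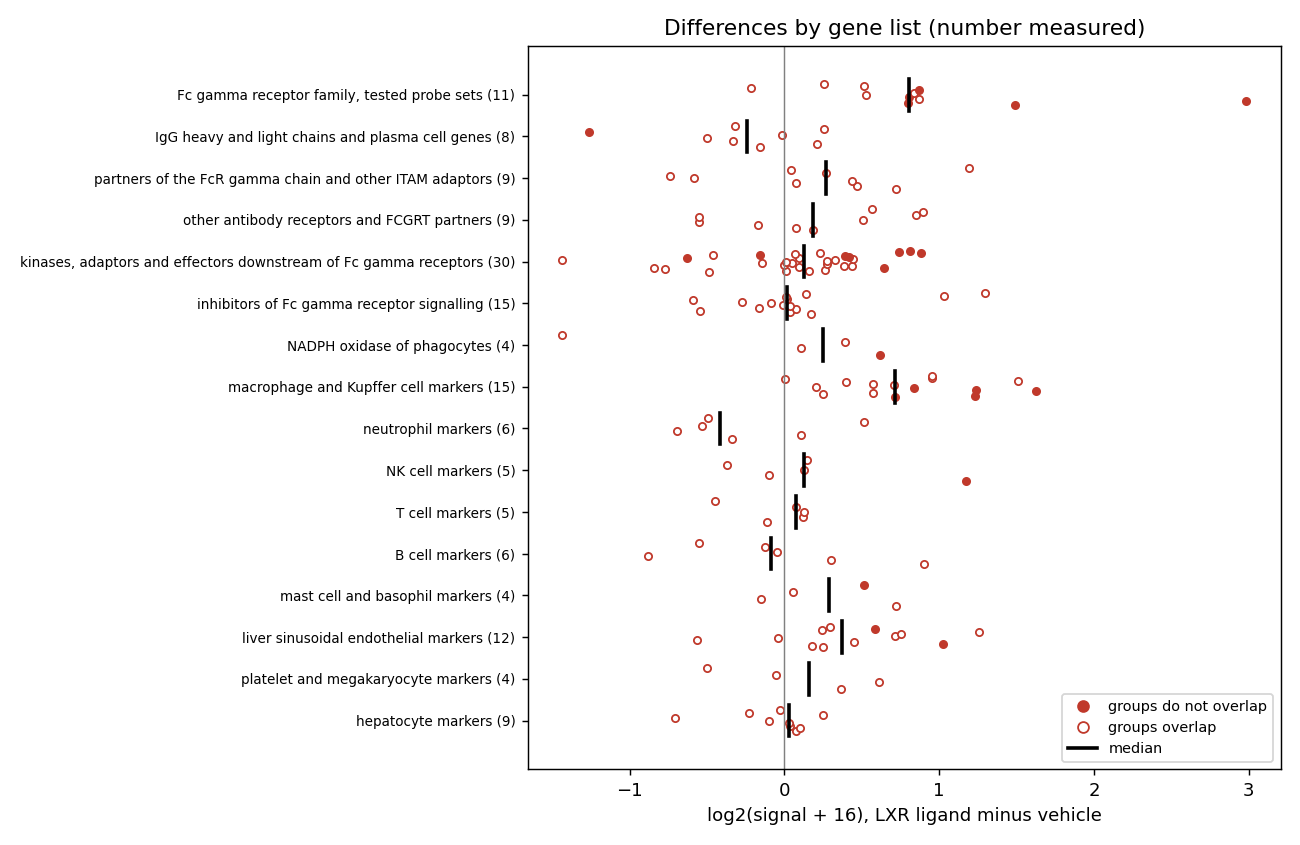
Difference in log2(signal + 16), LXR ligand minus vehicle, for the 11 tested probe sets of the family (top row) and for each measured gene of 15 lists. Filled points mark groups that do not overlap, and black bars are medians: 0.80 for the family, 0.71 for macrophage markers, 0.13 for downstream signalling genes and 0.020 for inhibitors.

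The genes nearest in pattern to each of 4 family probe sets were found by the root mean square difference of centred log2(signal + 16) over the 6 arrays, among the 13349 genes, where 0 would be an identical pattern. For FCER1G 204232_at these were IL10RA, the ligand-binding chain of the interleukin-10 receptor, at 0.11, CD74, the invariant chain of MHC class II, at 0.13, ROMO1, a mitochondrial membrane protein, at 0.13, IFNGR1, a chain of the interferon gamma receptor, at 0.14, and FNBP1, a membrane-bending protein, at 0.15, against a median over all genes of 0.63. For FCGR2B they were PARP10, HOXB6, CHST4, TMEM86A and ZBTB37, at 0.066 to 0.11, against a median of 0.48. For FCGRT they were CAPNS1, SMC6, SNRPD3, SLC22A9 and AGFG1, at 0.040 to 0.070, against a median of 0.42. For FCGR1BP 214511_x_at, added after its values were seen, they were GALNS, LINC02593, TMPRSS2, CXCL16 and SVEP1, at 0.39 to 0.53, against a median of 1.54. These genes had vehicle means of 46.8 to 98.7, under 129, the mean signal needed for testing. Like 214511_x_at, they were bright enough only through the ligand arrays, and the part of this filter in their likeness was not tested. Such a distance grows with the spread of the probe set itself, so it is not compared between the 4. The nearest of 13349 genes over 6 arrays lie well under the median by selection, so the median gives only the scale.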

How the data were processed

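Liver RNA of 6 macaques was hybridised to an Affymetrix array that the probe annotation gives as human, 1 animal each, and grouped by the treatment label. The deposited table holds linear intensity values that, per the submitters' processing notes, came from MAS5. Its version and scaling target were not given in the sources used here. Detection calls were not used here. The family and the gene lists were chosen with earlier results of these data known.

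Signals were kept as scaled, and log2(signal + 16) was fitted with limma 3.58.1 (lmFit, eBayes with an intensity trend; two-sided; Benjamini-Hochberg) in R 4.3.3 over the 27304 non-control probe sets with a mean signal at or above the median. Of 54675 probe sets, 41097 had 1 symbol and 1801 several. List genes were represented by their brightest tested probe set with 1 symbol. Named from each list were the 3 largest differences among separated groups and 18 defining markers. Exceptions are marked, apart from the plasma cell list genes IGKC, DERL3, IGHM, SDC1 and IGLL5, which were named outside this rule. The fit was tested on simulated data. With 3 animals a group, their number limits precision. Figures used matplotlib 3.10.9. Sequences were not used here.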

Additional observations from a re-analysis of the deposited data

How the results depend on the processing

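The count of probe sets called over the array was 0 with a constant of 1 or 64, no filter, a filter at the 75th percentile, quantile normalization, median centring, no intensity trend and the replicate number as a block, and 0 to 1 when single arrays were left out, the call being SREBF1 without ligand array 2 and ACAA2 without vehicle array 2, neither a family member. The family's median difference of 0.80 ran from 0.60 (no filter, 15 probe sets) to 0.85 (constant of 1) under those settings, the block leaving it at 0.80, and from 0.68 to 0.999 when single arrays were left out. The count of 5 separated probe sets was 3 of 6 with the filter at the 75th percentile, where fewer are tested, and 5 to 9 when single arrays were left out, with 9 without vehicle array 3 and 1 of 7 lying below without ligand array 1. Separation is more frequent with fewer arrays. Over all tested probe sets, 9.46% to 11.96% lay wholly above and 9.10% to 11.49% wholly below when single arrays were left out. With all arrays these shares were 5.99% and 4.96%. Of 138 single-member values, 136 moved by less than the spread between animals. They include the values with no filter, the 75th percentile filter and the replicate block, which cannot change a probe set's difference and so are the same by construction. Leaving out a single array cannot move a difference by as much as this spread either, so those values are also the same by construction. Only the values with other constants, quantile normalization or median centring could have moved further. The 2 that moved further were those of FCGR1BP with constants of 1 and 64. Among the tested family probe sets the sign turned once, for FCGR3B without ligand array 3, and the cause was not tested. Over the whole array, separated probe sets lay above in 54.7% of cases as deposited and in 44.5% with median centring, which left the family's count at 5. The labels name no pairing of the animals, and none was used in the main fit. Same-numbered arrays deviated together with r of 0.040, -0.031 and 0.070 across probe sets, and differently numbered arrays with r of -0.076 to 0.034. The replicate block left 6 family probe sets at an unadjusted p of limma's test under 0.05, as without it. That count was 5 with the 75th percentile filter or median centring, 4 without the intensity trend and 3 to 6 when single arrays were left out. Dim probe sets near the background limit what can be said of FCGR1A, 1565673_at, 1565674_at and 211396_at.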
